A study of Mus musculus with 18 samples.

Results

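A set of 7 genes of the glutamate receptor family carried sites of altered histone H3.3 in mouse nucleus accumbens after social stress. They encode 3 metabotropic receptors (Grm5, Grm7 and Grm8), 2 kainate receptor subunits (Grik3 and Grik4) and 2 NMDA receptor subunits (Grin2b and Grin3a). The 7 genes were selected on the outcome itself: each had at least 1 gene body or promoter site in a list of differential H3.3 sites, which held only sites with a p under 0.0001 in the authors' test. They are 7 of the 1041 genes with such a site. Their 10 sites are 10 of 1252 gene body or promoter sites, and of 2300 listed sites of any class. Because these contrasts chose the genes, their differences are described below without a test.

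H3.3 occupancy came from ChIP-seq, the sequencing of DNA crosslinked to and precipitated with H3.3, in C57Bl/6J mice, with 3 ChIP and 3 Input libraries in each of 3 groups and 5 animals pooled in every library. Susceptible re-exposed mice had been through chronic social defeat, were classed as susceptible by social interaction testing 48 h later, and met an aggressor again on day 28 for 5 min of attack and 55 min of adjacent housing. Acute stress mice went through that 1 h of stress without the earlier defeat. Control mice came straight from the home cage. The susceptible list gave normalised read counts at 1286 sites for 3 susceptible and 2 control libraries. The acute list gave them at 1014 sites for 2 acute stress and 2 control libraries. Both lists used the same control libraries, since the recovered control reads were equal at 18 of the 18 sites with identical coordinates. No susceptible group without re-exposure was analysed here, so effects of the earlier defeat, of selection as susceptible and of the renewed stress cannot be told apart. In bulk tissue, fewer cells of a type and less H3.3 per cell cannot be told apart either, and a list of sites gives no expression of marker genes by which to check the tissue.

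Libraries are numbered by their place in the deposited count cells, which do not say which sample each is. Within each library all values were whole multiples of a step, the worth of 1 read. That step was 1.63, 0.828 and 1.47 normalised counts in the susceptible libraries, against 0.918 and 0.534 in the controls of the same list. It was 0.951 and 1.43 in the acute stress libraries, against 1.08 and 0.657 in their controls. A count of 0 in a library allows up to 3 reads, or 4.88 and 4.40 normalised counts in the first and the third susceptible library and 4.29 in the second acute stress library. The member sites rested on 34 to 57 reads over the 5 libraries of the susceptible list and on 29 to 39 reads over the 4 libraries of the acute list. Intervals below are exact Clopper-Pearson 95% intervals of pooled reads and leave out the spread between animals and any duplicate reads, so they describe counting error only. They also take no account of the selection of sites on these same counts. An interval that leaves out a fold of 1 therefore comes with being listed, and the folds may be overstated.

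Glutamate is the main excitatory transmitter of the brain, and the medium spiny neurons of the nucleus accumbens are driven by glutamatergic input from cortex, hippocampus, amygdala and thalamus. Ionotropic receptors are ligand-gated channels of AMPA, kainate, NMDA and delta type, whereas metabotropic receptors signal through G proteins. H3.3 is the H3 variant that can be exchanged outside DNA replication, at genes and regulatory elements of cells that no longer divide.

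All 10 sites lay in gene bodies and none in a promoter, by the authors' annotation on mm10. Every site also lay inside the interval of its gene in RefSeq (GRCm38.p6), with no other RefSeq gene at the same position. Exons and introns were not distinguished. Of the 10 sites, 9 lay more than 100 kb from the annotated start. All 10 fell between 3.45% and 79.4% of the way along their genes. The median distance from the start was 274 kb for the member sites of the susceptible list, compared with 66.6 kb over all lower gene body sites of that list. The genes are long, 184 to 922 kb in RefSeq, against a median of 17.1 kb for all 21900 protein-coding genes. Being listed goes with length in general: a lower susceptible site was found in 0.176% of genes under 10 kb and in 41.5% of those of 400 kb or more. The distances above were not matched for gene length, so they show no trait particular to these genes.

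**Figure D1:**
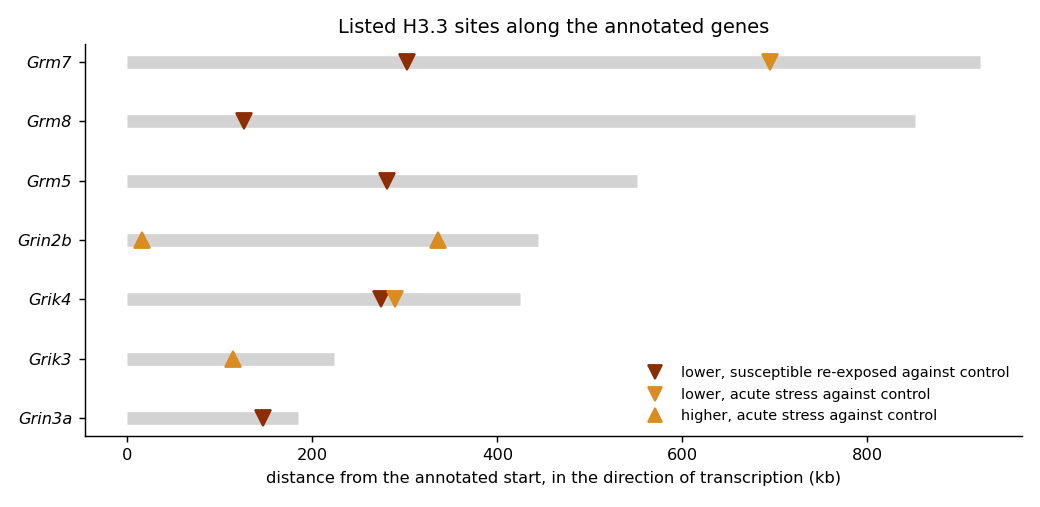
Position of the 10 listed sites along the 7 annotated genes, as the distance from the annotated start in kb; grey bars are the genes, triangles pointing down are sites lower than control and triangles pointing up are sites higher than control. The susceptible and acute sites of Grik4 lie 14.2 kb apart, while those of Grm7 lie 393 kb apart.

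RefSeq promoter windows, from 250 bases before to 50 after a transcription start, were given for 4 of the 7 genes. Those of 3 genes are shown, Grm7 and Grik4 as genes with a lower site in both lists and Grik3 as the member with the smallest p. Capitals mark the GC box GGGCGG on either strand, a motif bound by factors of the Sp family, and overlapping matches would be counted separately.
Grm7, chr6:110645348-110645647, plus strand, GRCm38.p6: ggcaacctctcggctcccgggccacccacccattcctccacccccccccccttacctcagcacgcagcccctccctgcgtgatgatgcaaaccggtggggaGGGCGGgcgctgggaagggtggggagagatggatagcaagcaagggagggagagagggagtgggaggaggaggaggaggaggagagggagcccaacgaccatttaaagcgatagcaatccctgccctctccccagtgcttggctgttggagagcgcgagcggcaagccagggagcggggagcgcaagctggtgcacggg
Grik4, chr9:42944322-42944621, minus strand, GRCm38.p6: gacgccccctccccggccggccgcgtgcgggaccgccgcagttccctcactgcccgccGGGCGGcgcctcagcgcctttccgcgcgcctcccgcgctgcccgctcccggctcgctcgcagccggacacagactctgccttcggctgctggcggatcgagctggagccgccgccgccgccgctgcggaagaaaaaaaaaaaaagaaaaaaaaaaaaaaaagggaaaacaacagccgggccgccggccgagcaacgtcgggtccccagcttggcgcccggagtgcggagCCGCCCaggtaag
Grik3, chr4:125490446-125490745, plus strand, GRCm38.p6: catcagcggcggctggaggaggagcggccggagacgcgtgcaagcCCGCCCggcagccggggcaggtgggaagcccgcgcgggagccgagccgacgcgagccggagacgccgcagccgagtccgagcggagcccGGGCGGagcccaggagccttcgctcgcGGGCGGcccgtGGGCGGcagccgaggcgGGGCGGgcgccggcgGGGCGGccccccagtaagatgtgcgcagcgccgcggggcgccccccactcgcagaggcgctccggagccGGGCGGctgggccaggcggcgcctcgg
The Grm7 and Grik4 windows start at the position the authors' annotation uses, and the Grik3 window at a start 135 bp upstream of it. The GC content was 66.7% at Grm7, 70.0% at Grik4 and 82.0% at Grik3, compared with a median of 52.7% over all 32851 promoter windows of the table. A second Grm7 window, not shown, belongs to a start 86 bp upstream and had a GC content of 61% and 1 GC box. The GC box occurred 1 time at Grm7, 2 times at Grik4 and 7 times at Grik3, and 35.7% of all windows held it at least 1 time. Neither the cAMP response element TGACGTCA nor the TATA motif TATAAA was found in these windows, and they occur in 1.79% and 13.6% of all windows. The nearest site of either list was 302 kb from the Grm7 window, 101 kb from the Grik4 window and 114 kb from the Grik3 window. So no listed site fell on these promoters. At Grm7 and Grik3 it was the gene's own site, whereas the listed sites of Grik4 lay 274 and 289 kb from its start.

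In susceptible re-exposed mice, 5 of the 7 genes had a site with less H3.3 than controls, and none had a site with more. Of the 3 metabotropic genes all had such a site, and so had the kainate subunit gene Grik4 and the NMDA subunit gene Grin3a. Among all protein-coding genes, 2.64% had a lower site and 0.0822% a higher site in this list. A lower site was found in 23.3% of the 1101 protein-coding genes at least as long as Grin3a, the shortest of these members. The count of members cannot be read against these shares, since a listed site is what made a gene a member.

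Grm5 encodes a group I metabotropic receptor that couples to Gq and is abundant at striatal synapses. Its site (chromosome 7, 87864651 to 87864950) lay 281 kb into the gene, near the middle. It held 4.88, 2.48 and 2.94 normalised counts across the susceptible pools, against 12.85 and 12.81 across the control pools. All 3 susceptible libraries were below both controls, as at 100% of all lower sites of the list, and the controls lay close together. The means were 3.43 ± 1.27 (SD, n = 3) for susceptible mice, against 12.8 ± 0.0283 (SD, n = 2) for controls. On 8 susceptible and 38 control reads, the pooled fold was 0.249 (interval 0.10 to 0.542).

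Grm7 and Grm8 encode group III metabotropic receptors, which couple to Gi/o and sit mainly on presynaptic terminals, where they restrain transmitter release. The susceptible site of Grm7 (chromosome 6, 110947476 to 110947750) held 0, 1.66 and 2.94 normalised counts across the susceptible pools, against 11.93 and 10.14 across the control pools. The first susceptible library had no read there, and the others had 2 each, against 13 and 19 in the controls. The pooled fold was 0.148 (interval 0.0380 to 0.417). The log2 fold change was -2.85 in the authors' deposited table, -2.26 without the first susceptible library and -3.73 without the third one.

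The Grm8 site (chromosome 6, 27999901 to 28000150) lay 126 kb into a gene of 851 kb. It held 1.63, 2.48 and 0 normalised counts across the susceptible pools, against 11.01 and 9.61 across the control pools. Here the third susceptible library was the empty one, and the groups were again apart, as at all lower sites of the list. The means were 1.37 ± 1.26 (SD, n = 3) and 10.3 ± 0.990 (SD, n = 2), and the pooled fold was 0.158 (interval 0.0404 to 0.448) on 4 susceptible and 30 control reads. The log2 fold change was -2.91 in the authors' deposited table. It was -3.66 without the second susceptible library and -2.33 without the third, empty one.

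Grik4 encodes a high-affinity kainate subunit, GluK4, which forms channels only together with other kainate subunits. Its site in the susceptible list (chromosome 9, 42669801 to 42670075) held 3.26, 2.48 and 1.47 normalised counts across the susceptible pools, against 11.01 and 11.21 across the control pools. It was read in every susceptible library, unlike those of Grm7 and Grm8. The means were 2.40 ± 0.897 (SD, n = 3) for susceptible mice, against 11.1 ± 0.141 (SD, n = 2) for controls. The pooled fold was 0.215 (interval 0.0737 to 0.520) on 6 susceptible and 33 control reads. With a p of 7.61e-05 in the authors' deposited table, it was the member site nearest to the listing threshold. Sites with a p above that threshold are not analysed here.

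Grin3a encodes GluN3A, a glycine-binding NMDA subunit that lowers the calcium permeability of the receptor. Its site (chromosome 4, 49699426 to 49699725) held 8.14, 4.14 and 0 normalised counts across the susceptible pools, against 15.60 and 16.02 across the control pools. The susceptible values had the widest spread among the member sites, and the control level was the highest of the 5. The first susceptible library reached about the middle between the empty one and the controls, so the size of the difference rests on which susceptible libraries are used. The means were 4.09 ± 4.07 (SD, n = 3) for susceptible mice, against 15.8 ± 0.297 (SD, n = 2) for controls. The log2 fold change was -1.95 in the authors' deposited table, -2.93 without the first susceptible library and -1.36 without the third one. The pooled fold was 0.252 (interval 0.113 to 0.505) on 10 susceptible and 47 control reads.

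**Figure D2:**
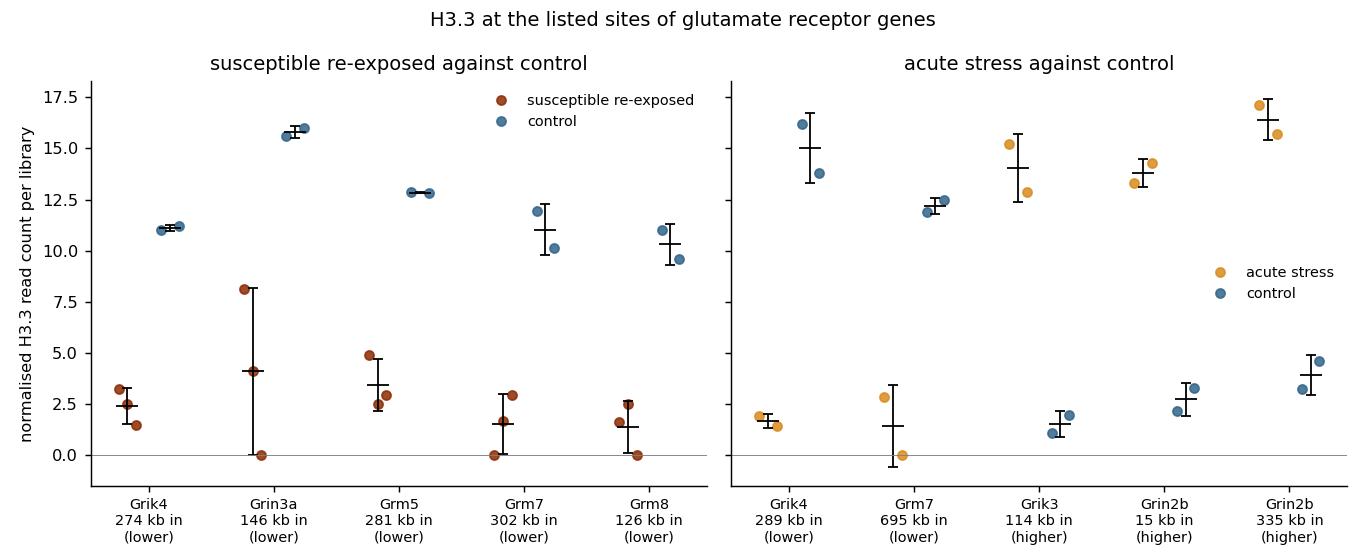
Normalised H3.3 read counts per library at the member sites, with susceptible re-exposed or acute stress libraries left of the control libraries; points are libraries, bars are mean ± SD, and the distance of each site from the gene start is given under its name. At all 10 sites the stress and control libraries do not overlap, as at 100% of all lower sites of both lists and of all higher acute sites. The widest spread is that of the susceptible libraries at Grin3a, from 0 to 8.14.

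The 5 sites were not extreme among the lower sites of the list. Their median log2 fold change was -2.21, compared with -2.42 over all 1255 lower sites in the authors' deposited table. By the deposited p, they ranked between 399 (Grm7) and 1105 (Grik4) of these 1255. The stress and control libraries did not overlap at 100% of all lower sites either, so that separation comes with being listed. The authors' deposited table also gives an enrichment ratio per group, whose denominator the sources do not name. It was 1.57 at Grm5, 1.07 at Grm7, 0.90 at Grm8, 0.35 at Grik4 and 2.73 at Grin3a in susceptible mice, and was listed as infinite in controls at all 5. Over all lower sites of the list, 60.3% had an infinite control ratio.

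**Figure D3:**
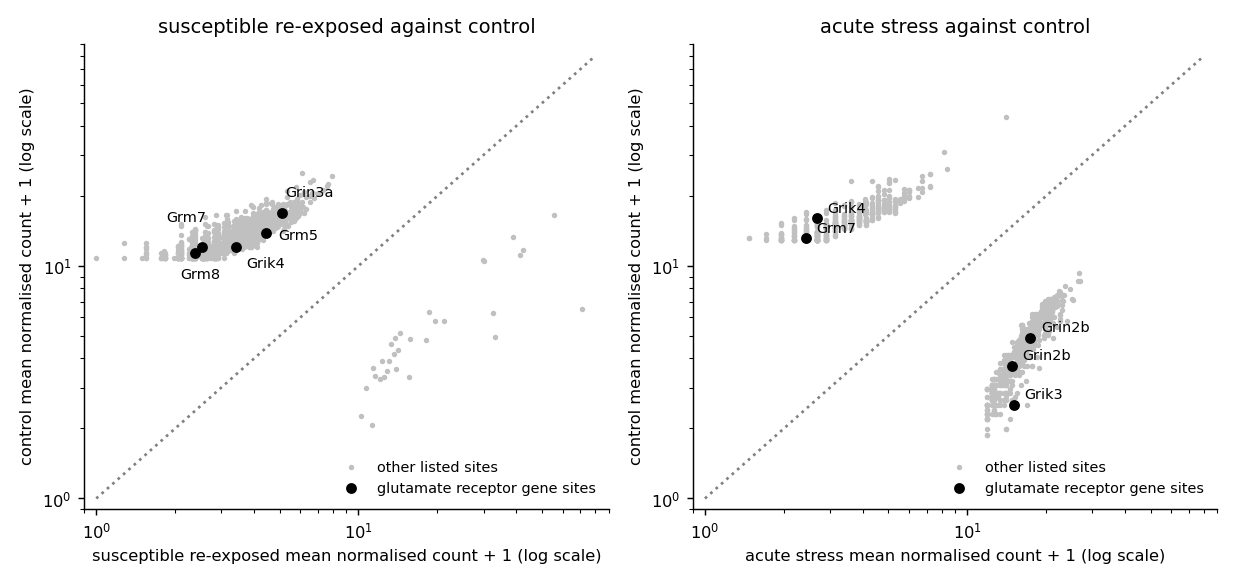
Mean normalised count + 1 in the stress group (x axis) and in controls (y axis) at every listed site of the susceptible (left) and acute (right) lists, both axes on a log scale. Black points are the member sites, grey points the other listed sites, and the dotted line marks equal means; the member sites lie within the clouds of listed sites above and below the line.

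After acute stress, 4 of the 7 genes had a listed site, and they went both ways. The ionotropic genes Grik3 and Grin2b had sites with more H3.3 than controls, and Grm7 and Grik4 had sites with less. No member had sites in both directions. Lower sites were listed in 1.13% of all protein-coding genes and higher sites in 1.11%. Among the 305 genes at least as long as Grik4, 19.0% had a lower site, and among the 846 genes at least as long as Grik3, 10.2% had a higher site.

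Grik3 encodes the kainate subunit GluK3, a low-affinity subunit that can form channels by itself. Its site lay at 50.9% of the gene, on chromosome 4 between 125604351 and 125604625. It held 15.21 and 12.86 normalised counts across the acute stress pools, against 1.08 and 1.97 across the control pools. That is 16 and 9 reads in the acute stress libraries, against 1 and 3 reads in controls. The pooled fold was 8.73 (interval 3.01 to 34.5). The authors' deposited table gives a log2 fold change of 3.20 and a p of 8.5e-07, rank 6 of the 541 higher sites. With 1 normalised count added to both means the log2 fold change was 2.57. The adjusted p in the authors' deposited table was 0.00689, the smallest among the acute sites of these genes.

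Grin2b encodes GluN2B, the glutamate-binding NMDA subunit that predominates early in development and persists in adult forebrain. It was the only one of the 7 genes with 2 sites in the same list, and both were higher after acute stress. The first (chromosome 6, 136158051 to 136158350) lay 15.3 kb from the start, closer than any other member site. It held 13.31 and 14.29 normalised counts across the acute stress pools, against 2.16 and 3.29 across the control pools. The second (chromosome 6, 135837876 to 135838175) lay 335 kb from the start and 320 kb from the first. It held 17.11 and 15.72 across the acute stress pools, against 3.24 and 4.60 across the control pools. At both positions the acute stress libraries were several times above the controls and close to each other. The pooled folds were 4.79 (interval 2.0 to 13.2) at the first and 4.05 (interval 1.92 to 9.32) at the second, so their intervals overlap widely. The second control library was the higher one at both sites, as it was at Grik3.

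Grik4 had the acute lower site with the smallest p among the members (chromosome 9, 42655351 to 42655650), rank 27 of the 473 lower sites. It held 1.90 and 1.43 normalised counts across the acute stress pools, against 16.22 and 13.80 across the control pools. There were 3 reads in the acute stress libraries, against 36 in controls, for a pooled fold of 0.116 (interval 0.0229 to 0.368). The acute lower site of Grm7 (chromosome 6, 111340776 to 111341025) lay 695 kb into the gene, farther from the start than any other member site. It held 2.85 and 0 normalised counts across the acute stress pools, against 11.90 and 12.48 across the control pools. All 3 acute stress reads came from 1 library, against 11 and 19 control reads, and the pooled fold was 0.140 (interval 0.0273 to 0.449). Its log2 fold change was -3.10 in the authors' deposited table and -2.10 without the second acute stress library.

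The authors' deposited enrichment ratio at these lower sites was 0.17 in acute stress mice and 1.43 in controls at Grik4, and 0.09 in acute stress mice and 0.90 in controls at Grm7. Over all lower acute sites, 61.9% had an acute stress ratio under 1 and 55.0% an infinite control ratio. At the higher sites it was infinite in both groups at Grik3 and at the first Grin2b site. At the second Grin2b site it was 1.63 in acute stress mice with an infinite control ratio. Over all higher acute sites, 60.4% had an infinite control ratio and 41.0% an infinite acute stress ratio. The median log2 fold change of the 3 higher member sites was 2.34, compared with 2.20 over all 541 higher sites in the authors' deposited table. For the 2 lower acute member sites it was -3.135, compared with -2.64 over all 473 lower sites.

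**Figure D4:**
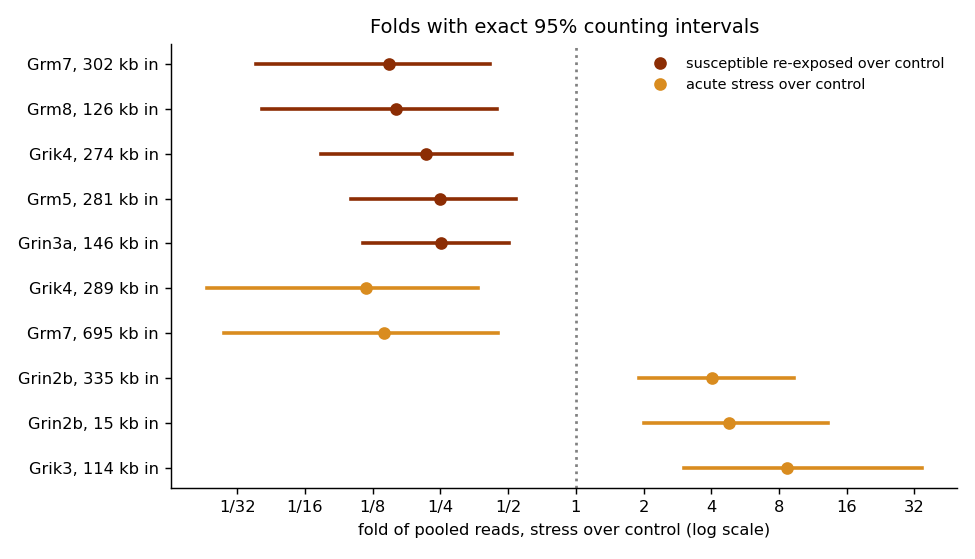
Fold of pooled reads, stress over control, at the 10 member sites on a log scale, with exact 95% counting intervals as bars; the dotted line marks equal depth-scaled reads. The folds run from 0.116 at the acute site of Grik4 to 8.73 at Grik3, and the intervals of the 7 lower sites overlap one another. The sites were listed on these same counts, so intervals clear of the dotted line come with being listed.

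Of the 7 genes, Grm7 and Grik4 had a lower site in both lists, at different positions each time. Both are longer than 400 kb, where 41.5% of protein-coding genes had a lower susceptible and 19.3% a lower acute site. The share of genes with a lower site in both lists was not computed. In Grik4 the susceptible and acute sites were separated by 14150 bp, and in Grm7 by 393025 bp. None of the 5 susceptible sites overlapped any of the 5 acute sites. The mean count at the Grik4 sites was 2.40 in susceptible mice at the first position and 1.67 in acute stress mice at the second, with control means of 11.1 and 15.0. At the Grm7 sites it was 1.53 in susceptible mice and 1.43 in acute stress mice; its control counts are given above. These values stand on separate scales, because each list was normalised by itself, and the controls are the same libraries, so the pairs carry no independent evidence. The level in the other stress group at each position is not analysed here.

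Across the family of 26 glutamate receptor genes, 7 had a lower site in the susceptible list, 3 a lower site and 2 a higher site in the acute list. In all, 9 of the 26 had a site, the 7 genes described here and 2 others. No AMPA receptor gene (0 of 4, 123 to 378 kb long) had a site in either list. Among all protein-coding genes of 100 to 200 kb and of 200 to 400 kb, 7.85% and 15.5% had a lower susceptible site, so that 4 genes are too few to tell 0 from these shares. A site of either direction in either list was found in 2 of 5 kainate genes and 2 of 7 NMDA genes. By the same count it was 2 of 4 group III metabotropic genes and 0 of 2 group II genes. A lower susceptible site was found in 1 kainate, 1 NMDA and 2 group III genes. The share of all genes with a site of any kind was not computed. Receptor genes with a site had a median length of 460 kb, and those without had a median of 123 kb. Of the 17 receptor genes at least as long as Grin3a, 41.2% had a lower susceptible site, beside the 23.3% of all protein-coding genes of that length. Of the 9 at least as long as Grik4, 33.3% had a lower acute site, beside 19.0%. Of the 16 at least as long as Grik3, 12.5% had a higher acute site, beside 10.2%. Each cut is the length of the shortest member with such a site, so only receptor genes without one are left out. That raises the share of the family by construction, and lengths above the cuts were not matched. Per megabase of gene, the family had 0.747 lower susceptible sites, against 0.620 over all protein-coding genes. It had 0.427 lower and 0.320 higher acute sites per megabase, against 0.25 and 0.235. These shares were not tested against each other.

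**Figure D5:**
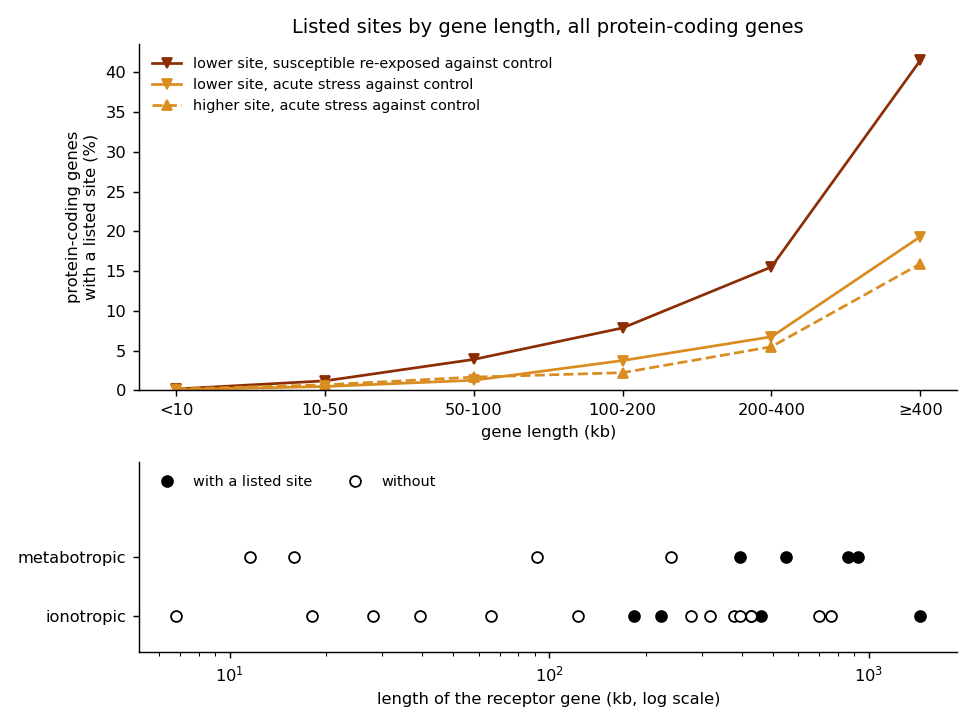
Top, percent of all protein-coding genes with a listed site (y axis) by gene length in kb (x axis), for lower susceptible, lower acute and higher acute sites. Bottom, the length of each of the 26 receptor genes on a log scale, filled where the gene had a listed site; the share with a lower susceptible site was 0.176% among genes under 10 kb and 41.5% among genes of 400 kb or more.

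Genes that work with these receptors were counted in 3 lists. Of 14 auxiliary subunit genes none had a lower site, and 2 had a higher site after acute stress. Among all protein-coding genes, 2.64% had a lower susceptible and 1.13% a lower acute site, so 14 genes are too few to tell 0 from these shares. A higher acute site was listed in 1.11% of all protein-coding genes and in 5.49% of those of 200 to 400 kb, the range in which both genes fall (316 and 204 kb). Shisa6, whose product keeps AMPA receptors from desensitising at synapses, had 12.4 ± 2.71 normalised counts in acute stress mice, against 2.28 ± 1.36 in controls (SD, n = 2 per group). Gsg1l, an AMPA receptor auxiliary subunit, had 19.8 ± 2.39 in acute stress mice, against 6.20 ± 0.410 in controls (SD, n = 2 per group). Among the 18 ionotropic receptor genes, 2 had a higher acute site (Grik3 and Grin2b) and 2 a lower one, Grik4 among them. The shares for genes of such length are given above.

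Among 14 genes of group I metabotropic signalling, 2 had a lower site in each list. The genes concerned are 256 to 689 kb long. Of all protein-coding genes of 200 to 400 kb, 15.5% had a lower susceptible and 6.74% a lower acute site, and of those of 400 kb or more 41.5% and 19.3%. Gnaq, the Gq alpha subunit to which the Grm5 product couples, had a lower site in both lists, at 1.65 ± 1.66 (SD, n = 3) in susceptible mice against 12.5 ± 1.80 (SD, n = 2) in controls, and at 2.86 ± 0.00707 in acute stress mice against 16.3 ± 0.148 in controls (SD, n = 2 each). The phospholipase C genes Plcb1 and Plcb4, whose products act below Gq, had 1 lower site each, Plcb1 in the susceptible list and Plcb4 in the acute list. Of 20 scaffold genes, Dlgap1 and Dlgap2 had lower sites in the susceptible list, and Dlg2 and Grip1 in the acute list. All 4 are longer than 400 kb, where those same shares of 41.5% and 19.3% apply. Grip1, whose product binds AMPA receptors, had 2 of these sites. No higher site fell in the scaffold or signalling lists. Among all protein-coding genes, 0.0822% had a higher susceptible and 1.11% a higher acute site. The higher acute share was 15.9% among genes of 400 kb or more. The absence of higher sites was not tested against these shares.

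The sites of other genes with the most similar profile were looked up for 3 member sites, those with the smallest p in each direction of each list. Likeness was the Euclidean distance between log2(normalised count + 1) values over the 5 or 4 libraries. For the susceptible site of Grm7 the nearest of 712 genic sites were in Cntn5 and Asxl3, both at a distance of 0.11. For the acute lower site of Grik4 the nearest of 538 was in Cacnb2, with identical counts in all 4 libraries. For Grik3 the nearest were in Zfp407 and Ccdc68, both at 0.30. The Cntn5 and Asxl3 sites had the same counts as each other in all 5 libraries.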

How the data were processed

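Bowtie2 2.2.0, SAMtools 0.1.19 and the mm10 build are listed in the submitters' processing notes. The authors deposited 2 tables of differential sites, and the table names give diffReps and windows of 250 bp; the sources used here do not name its version, test or filters. Each count cell holds normalised read counts of 3 or 2 libraries, as the authors deposited them, named here by their position in the cell. The group means are a signal of the authors in normalised counts. The enrichment ratio, the log2 fold change, the p-value and the adjusted p-value of each site were deposited by the authors.

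The worth of 1 read was found as the largest step of which at least 99% of a library's values were whole multiples, within 0.02 normalised counts; that share was 100% in every library. On tables drawn anew from the recovered reads, 100% of reads were right in each library (1286 and 1014 sites). Depth-scaled pooled folds use these reads. Gene names were matched to RefSeq GRCm38.p6, where 578 of 619 names with a lower and 18 of 20 with a higher susceptible site were protein-coding, as were 248 of 259 with a lower and 242 of 260 with a higher acute site. Python 3.11.15, pandas 2.3.3 and scipy 1.17.1 were used. Replicates are pools of 5 animals that the labels call biological, and the tables hold 2 or 3 per group. The rule for the most similar profiles took the member site with the smallest p in each list and direction. The members and gene lists were chosen with earlier results of these data known. All sites of the 7 genes are named; of the listed family and pathway genes, those with a site are named, except some that are not reported here.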

Additional observations from a re-analysis of the deposited data

How the results depend on the processing

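The counts of member genes depend on the listing threshold. With a deposited p of at most 1e-05, 0 of the 5 genes with a lower susceptible site remained, 1 of the 2 with a lower acute site (Grik4) and 1 of the 2 with a higher acute site (Grik3). With at least 2 sites per gene, 0 lower susceptible, 0 lower acute and 1 higher acute gene (Grin2b) were left. The shares of all listed genes that pass the same cuts are not given here, so these counts show nothing particular to the members. Counting only gene body sites, or sites whose midpoint lay inside the RefSeq gene, gave the same counts. The log2 fold changes kept their sign at all 10 sites under a pseudocount of 1, from pooled reads, and in the 44 recalculations that left out 1 library. A further recalculation, the acute site of Grm7 without the first acute stress library, gave no value because the remaining library was at 0. The kept sign was fixed beforehand, because the stress and control libraries did not overlap at any of the 10 sites. Only the sizes of the changes could vary. The pseudocount of 1 changed the log2 fold change most at low counts, to -2.25 at the susceptible site of Grm7, -2.25 at Grm8, -2.44 at the acute site of Grm7 and 2.57 at Grik3. Leaving out 1 library gave log2 fold changes between -3.73 and -1.36 at the susceptible sites. No site of the 7 genes was shared by both lists, under either overlap rule tried. No paired analysis was possible because the count cells carry no replicate numbers and no test was run here. With 21 to 166 reads per listed site over all libraries, single sites are limited by counting error.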

Other observations

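Grm8 has several annotated starts. The authors' distance of 126 kb is measured from the most downstream of the 3 RefSeq promoter windows, which had a GC content of 43.3% and 2 CpG dinucleotides in 300 bases. The window of the most upstream start, 8720 bp away, had a GC content of 67.0% and 33 CpG dinucleotides. Seen from that window, the nearest listed site lay 135 kb away.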
